A study of Capitella teleta with 12 samples.

Results

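The TGF-β superfamily receptors of the annelid *Capitella teleta* were examined in single embryos at the 8-cell (4 embryos), 16-cell (3 embryos) and 32-cell (5 embryos) stages. They make up 5 of the 32415 gene models in the count table and were chosen by protein number. The members are *TGF-β Receptor 1* (227433) and *Activin Receptor 2* (94926) of the Activin/Nodal branch, and, of the BMP branch, *BMP Receptor 2* (117843) and the gene models 111904 (*BMP Receptor 1*) and 109715 (*Activin Receptor 1*). All embryos were untreated whole embryos obtained by mating worms of a laboratory colony, each sequenced as a library of its own. The sources used here do not say which embryos came from the same brood, so that p-values cover the spread between these embryos. In the study, the 16-cell stage falls within the activity of the organizer cell 2d, which patterns the body axes, and the 32-cell stage after it.

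TGF-β superfamily ligands signal through a complex of type I and type II receptors, which are transmembrane serine/threonine kinases. The type II receptor phosphorylates the type I receptor, and the type I receptor then phosphorylates receptor-regulated Smads, which move to the nucleus with Smad4. In other animals the type I receptor largely sets the branch, with TGF-β and Activin type receptors acting on Smad2/3 and BMP type receptors on Smad1/5/8, whereas type II receptors of the Activin class can also bind BMP ligands. In this family *Activin Receptor 1* is, despite its name, a type I receptor of the BMP branch. *TGF-β Receptor 1* and *BMP Receptor 1* are type I receptors, and *Activin Receptor 2* and *BMP Receptor 2* are type II receptors.

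RNA was counted by CEL-Seq, in which only the 3′ end of a transcript is sequenced and each molecule carries a unique molecular identifier (UMI). One transcript gives at most one count regardless of its length, so levels of different receptors were compared as CPM (counts over the total of the embryo, times 1000000) without a length term. Totals ranged from 236321 to 491733 counts per embryo. CPM values below are scaled by TMM factors, which correct for differences in composition between embryos, unless they are said to be over the totals. CPM is a share of the RNA of an embryo. In whole embryos a smaller number of expressing cells and less RNA per cell cannot be told apart. Summed over the embryos of a stage, the receptors had 393, 448 and 498 counts.

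Levels of the receptors spanned a wide range. Averaged over the 12 embryos, *Activin Receptor 2* had 196 CPM, *TGF-β Receptor 1* 68.5 CPM, *BMP Receptor 1* 27.9 CPM, *Activin Receptor 1* 21.2 CPM and *BMP Receptor 2* 0.539 CPM. Among the 20716 gene models with a count in any embryo these means lay at the 94.2, 85.4, 75.7, 72.5 and 20.8 percentiles. The type I receptors of the BMP branch thus lay between the Activin/Nodal receptors above and *BMP Receptor 2* far below. *TGF-β Receptor 1*, *BMP Receptor 1* and *Activin Receptor 2* had a count in 12 of 12 embryos, *Activin Receptor 1* in 11 and *BMP Receptor 2* in 2.

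**Figure D1:**
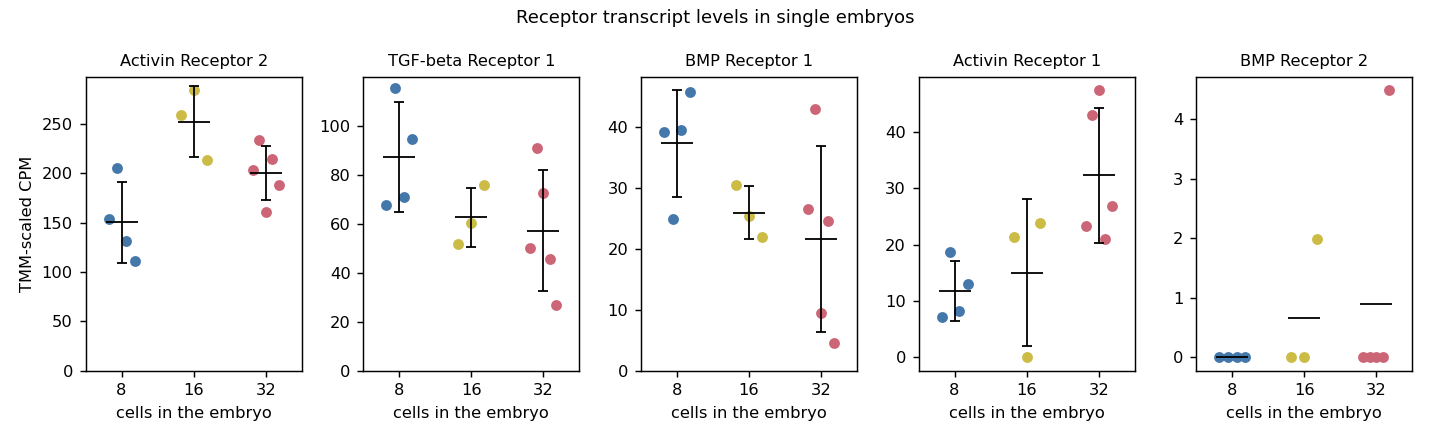
TMM-scaled CPM (vertical axes, each with its own scale) of the 5 receptors in single embryos at the 8-, 16- and 32-cell stages, with points for embryos, horizontal lines for stage means and bars for the SD, which are left out for *BMP Receptor 2*. *Activin Receptor 2* was higher in the 3 embryos of the 16-cell stage (at least 213 CPM) than in the 4 of the 8-cell stage (at most 206 CPM), and *Activin Receptor 1* was higher in the 5 embryos of the 32-cell stage than in the 4 of the 8-cell stage. For *Activin Receptor 1* the nearest embryos of these stages, at 21.1 and 18.7 CPM, had 6 counts each.

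*Activin Receptor 2*, the type II receptor of the Activin/Nodal branch, was the receptor with the highest level in every embryo. It was also the only receptor whose change between stages passed the threshold of 0.05 in edgeR with all embryos and TMM scaling. In 8-cell embryos it had 43, 66, 63 and 34 counts, or 153, 206, 131 and 111 CPM. In 16-cell embryos it had 85, 123 and 107 counts, or 259, 284 and 213 CPM. In 32-cell embryos it had 61, 98, 51, 61 and 42 counts, or 203, 234, 161, 215 and 188 CPM. The 8- and 16-cell embryos did not overlap, with 16-cell replicate 3 just above 8-cell replicate 2, and the 32-cell embryos lay across the range of both earlier stages. The mean was 150 ± 40.8 CPM before (SD, n = 4) and 252 ± 36.1 CPM after the division to 16 cells (SD, n = 3), and 200 ± 27.5 CPM in 32-cell embryos (SD, n = 5).

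The log2 fold change of *Activin Receptor 2* between 8 and 16 cells was 0.75 (standard error 0.19, adjusted p = 0.0116, edgeR quasi-likelihood F test, Benjamini-Hochberg over 11854 genes). It was higher in 3 of 3 embryos of the 16-cell stage than in any of the 8-cell stage. The following step, to 32 cells, gave -0.32 (standard error 0.18, adjusted p = 0.575 in edgeR), and the whole interval between 8 and 32 cells gave 0.43 (standard error 0.17, adjusted p = 0.0894). The rise to the 16-cell stage missed the threshold of 0.05 without 16-cell replicate 2 (0.65, adjusted p = 0.0717 in edgeR), without 8-cell replicate 3 (0.67, adjusted p = 0.0536) and with all libraries thinned to the smallest total (0.66, adjusted p = 0.0505). It passed in 16 of 19 alternatives, with log2 fold changes between 0.64 and 0.92 and adjusted p between 0.00170 and 0.0717 over all of them.

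*BMP Receptor 2*, the type II receptor of the BMP branch, had 1 count in 16-cell replicate 3 and 1 count in 32-cell replicate 5, and 0 counts in the other 10 embryos. Pooled over a stage and divided by the totals, this corresponds to 0 CPM in 8-cell embryos, where 3 counts would be 2.18 CPM, to 0.815 CPM in 16-cell embryos (exact 95% interval 0.0206 to 4.54) and to 0.637 CPM in 32-cell embryos (0.0161 to 3.55). Intervals and limits cover counting error only, and they hold for the transcript only if the gene model covers its 3′ end, which was not tested. At this depth no stage difference could be detected (exact permutation test, 27720 assignments, p = 0.848). The study did detect the transcript by fluorescent in situ hybridization, in embryos with the organizer cell 2d, and marks the gene as differentially expressed. Here it was under the minimum of 10 counts for edgeR. Without a filter on low counts, edgeR's quasi-likelihood F test gave an adjusted p of 0.680 over the 3 stages.

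The type I receptors of its branch had far more counts than *BMP Receptor 2*. *BMP Receptor 1* and *Activin Receptor 1* together had 68 counts in 8-cell embryos, 51 in 16-cell embryos and 89 in 32-cell embryos. In 8-cell embryos their sum exceeded it at least 22.7-fold, if 3 counts of *BMP Receptor 2* are allowed over the 4 embryos, and the exact 95% lower limit of the ratio for counting error was 17.9. The ratio was 51 in 16-cell embryos (8.75 to 2053, the exact 95% interval for counting error) and 89 in 32-cell embryos (15.6 to 3554). These are ratios of counts, and hold for the transcripts only if the gene models cover the 3′ ends, which was not tested. In the Activin/Nodal branch the order was the opposite, with 206, 315 and 313 counts of the type II receptor *Activin Receptor 2* beside 119, 81 and 95 counts of the type I receptor *TGF-β Receptor 1* at the same stages.

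*TGF-β Receptor 1*, the type I receptor of the Activin/Nodal branch, was the second most abundant of the 5. It had 67.7, 115, 70.7 and 94.6 CPM in 8-cell embryos, on 19, 37, 34 and 29 counts. In 16-cell embryos it had 51.8, 60.1 and 75.6 CPM, on 17, 26 and 38 counts. In 32-cell embryos it had 49.9, 90.7, 72.7, 45.7 and 26.9 CPM, on 15, 38, 23, 13 and 6 counts. The stages overlapped throughout, the highest value was in an 8-cell embryo and the lowest in 32-cell replicate 5, which also had the smallest total. The means were 87.1 ± 22.4, 62.5 ± 12.1 and 57.2 ± 24.8 CPM (SD, n = 4, 3 and 5) in the order of the stages. The log2 fold change between 8 and 32 cells was -0.54 (standard error 0.27, adjusted p = 0.169 in edgeR's quasi-likelihood F test), which did not pass the threshold.

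*BMP Receptor 1*, a type I receptor of the BMP branch, had 39.2, 24.9, 39.5 and 45.7 CPM in 8-cell embryos, on 11, 8, 19 and 14 counts. In 16-cell embryos it had 30.5, 25.4 and 21.9 CPM, on 10, 11 and 11 counts. In 32-cell embryos it had 26.6, 43.0, 9.48, 24.6 and 4.48 CPM, on 8, 18, 3, 7 and 1 counts. The 32-cell embryos spread over most of the range seen at all stages, with 32-cell replicates 3 and 5 below every other embryo. The means were 37.3 ± 8.78, 25.9 ± 4.31 and 21.6 ± 15.3 CPM (SD, n = 4, 3 and 5) in the order of the stages, and the log2 fold change between 8 and 32 cells was -0.69 (standard error 0.41, adjusted p = 0.250 in edgeR's quasi-likelihood F test).

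*Activin Receptor 1*, the other type I receptor of the BMP branch, had its highest values in 32-cell embryos. It had 7.12, 18.7, 8.31 and 13.0 CPM in 8-cell embryos, on 2, 6, 4 and 4 counts. In 16-cell embryos it had 21.3, 0 and 23.9 CPM, on 7, 0 and 12 counts. In 32-cell embryos it had 23.3, 43.0, 47.4, 21.1 and 26.9 CPM, on 7, 18, 15, 6 and 6 counts. The 32-cell embryos all lay above the 8-cell embryos, while in 16-cell embryos one embryo was at 0 and the others were above all 8-cell embryos. The gap between 8- and 32-cell embryos was narrow. On the same 6 counts, 8-cell replicate 2 had 18.7 CPM and 32-cell replicates 4 and 5 had 21.1 and 26.9 CPM. In the embryo without a count, 16-cell replicate 2, the total of 422373 allows a level of up to 7.10 CPM over the total, at 3 counts.

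The means of *Activin Receptor 1* were 11.8 ± 5.26, 15.1 ± 13.1 and 32.3 ± 12.0 CPM (SD, n = 4, 3 and 5) in the order of the stages. The log2 fold change between 8 and 32 cells was 1.47 (standard error 0.54, adjusted p = 0.0560 in edgeR's quasi-likelihood F test), just outside the threshold. CPM was higher in 5 of 5 embryos of the later stage, though the lowest of these had the same 6 counts as the highest 8-cell embryo. This fold change passed in 4 of 18 alternatives: without 16-cell replicate 2 (adjusted p = 0.0134 in edgeR), without a filter on low counts (0.0181), without 8-cell replicate 2 (0.0487) and with DESeq2 size factors (0.0496). The highest adjusted p was 0.171, after thinning to the smallest total. The step between 16 and 32 cells was 1.12 (standard error 0.55, adjusted p = 0.491), and that between 8 and 16 cells was 0.36 (standard error 0.64, adjusted p = 0.801).

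**Figure D2:**
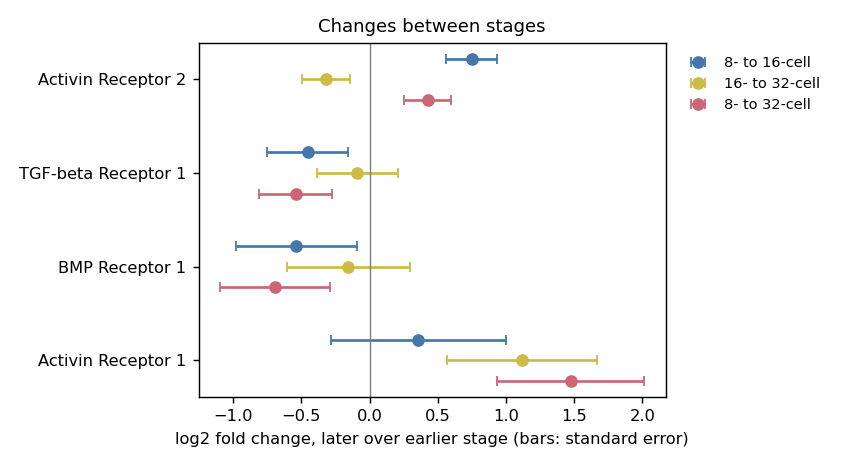
Log2 fold changes of the 4 receptors with enough counts to be tested (horizontal axis, later over earlier stage), with points for the estimate and bars for the standard error from edgeR's fit over 12 embryos. The change of *Activin Receptor 2* between 8 and 16 cells (0.75) passed the threshold, *Activin Receptor 1* had the largest estimate between 8 and 32 cells (1.47), and *TGF-β Receptor 1* and *BMP Receptor 1* had negative estimates.

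Over the 3 stages together, 1 of the 4 receptors with at least 10 counts passed the threshold in edgeR's quasi-likelihood F test, against 17.2% of all genes tested. Between 8 and 16 cells 1 of 4 passed, against 9.43% of all genes. Between 16 and 32 cells 0 of 4 passed in edgeR and 0 in DESeq2, against 2.21% of all genes in edgeR, and 0 receptors had an unadjusted p under 0.05 in either tool. Between 8 and 32 cells 0 of 4 passed in edgeR and 0 in DESeq2, against 20.0% of all genes in edgeR, and 2 receptors, *Activin Receptor 1* and *Activin Receptor 2*, had an unadjusted p under 0.05 in both tools. The share of all genes with an unadjusted p under 0.05 is not given here, so the unadjusted counts have no background beside them. With so few receptors, none of these counts is read as a departure from the background.

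Embryos of the 8- and 16-cell stages did not overlap for 1 of the 4 receptors (*Activin Receptor 2*), compared with 20.0% of all genes tested. For the 16- and 32-cell stages this was 0 of 4, compared with 7.86%, and for the 8- and 32-cell stages 1 of 4 (*Activin Receptor 1*), compared with 18.3%. The nearest 8- and 32-cell embryos of *Activin Receptor 1* had 6 counts each. The median log2 fold change of the 4 receptors was -0.05 between 8 and 16 cells and -0.06 between 8 and 32 cells, beside 0.08 and 0.09 over all genes tested. Opposite signs within the family gave these small medians, as *Activin Receptor 1* and *Activin Receptor 2* had positive and *TGF-β Receptor 1* and *BMP Receptor 1* negative estimates in both comparisons, most of which did not pass the test. The sum of the 5 receptors was 286 ± 52.7, 356 ± 17.6 and 312 ± 59.2 CPM (SD, n = 4, 3 and 5) in the order of the stages (exact permutation test over the stages, p = 0.244).

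Receptors of the same embryo were then compared with each other on the log2(CPM + 1) scale. All 10 pairs were tested with a two-sided exact sign-flip permutation test over the 12 embryos, with Benjamini-Hochberg adjustment over the pairs. *Activin Receptor 2* exceeded *TGF-β Receptor 1* by 1.55 ± 0.75 (SD, n = 12) and was higher in 12 of 12 embryos (exact adjusted p = 0.000814). The lead over *BMP Receptor 2* was 4.32 ± 1.58 for *BMP Receptor 1* and 3.70 ± 1.53 for *Activin Receptor 1* (SD, n = 12), in 11 of 12 embryos each and with a tie in the other (exact adjusted p = 0.00109 for both). As *BMP Receptor 2* had 0 counts in 10 of the embryos, the pseudocount sets the size of these leads. With a pseudocount of 0.1 they were 7.09 and 6.19, and with 10 they were 1.76 and 1.43, on the same side of the threshold. The neighbours *BMP Receptor 1* and *Activin Receptor 1* did not differ beyond their spread over all embryos, with a difference of 0.62 ± 1.94 (SD, n = 12), the higher value of *BMP Receptor 1* in 8 of 12 embryos and an exact adjusted p of 0.268. The other 9 pairs passed the threshold, and the order of levels in these counts was thus *Activin Receptor 2*, *TGF-β Receptor 1*, both BMP type I receptors and *BMP Receptor 2*. It holds for the transcripts only if each gene model covers the 3′ end, which was not tested and which the p-values do not cover.

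The order of the type I receptors rested on the count per molecule, in which 1 transcript gives at most 1 count whatever its length. Levels per kilobase of gene span are given beside it as a description only. The annotated gene spans were 6806 bases for *TGF-β Receptor 1*, 3117 for *BMP Receptor 1*, 1826 for *Activin Receptor 1*, 1896 for *Activin Receptor 2* and 3173 for *BMP Receptor 2*. Divided by these spans, which include introns, the mean levels were 10.1, 8.96, 11.6, 104 and 0.170 CPM per kilobase in the same order. *Activin Receptor 2* and *BMP Receptor 2* stayed highest and lowest, while the 3 type I receptors lay close together and *Activin Receptor 1* came first among them.

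**Figure D3:**
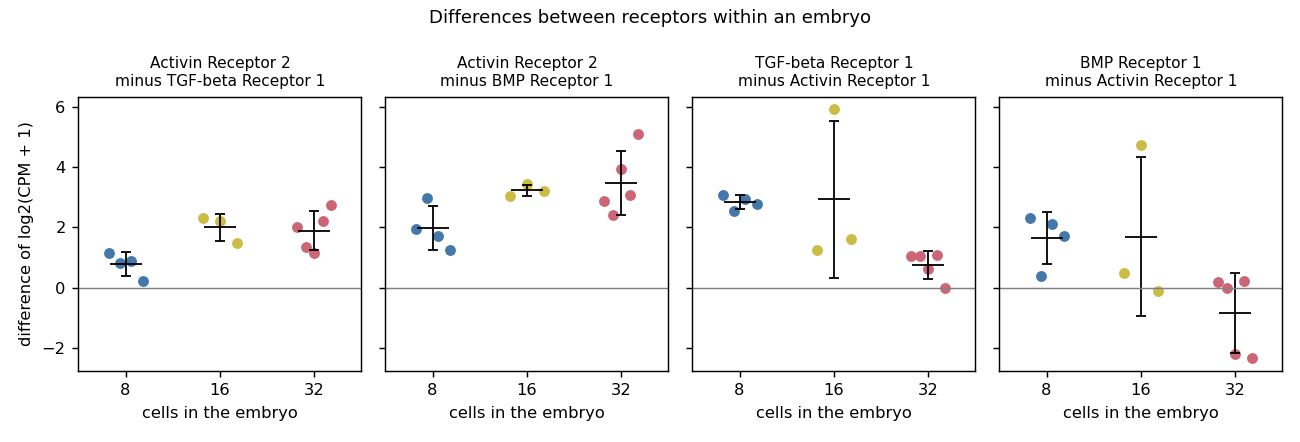
Differences of log2(CPM + 1) between receptors of the same embryo (vertical axis) at the 8-, 16- and 32-cell stages for 4 of the 10 pairs, with points for embryos, horizontal lines for stage means and bars for the SD. *TGF-β Receptor 1* exceeded *Activin Receptor 1* by at least 2.56 in the 8-cell embryos and by at most 1.08 in the 32-cell embryos, and the 16-cell embryo near 6 is the one without a count of *Activin Receptor 1*.

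Differences between receptors were also compared between stages, and none of the 10 pairs passed the threshold after adjustment. The difference of *Activin Receptor 2* to *TGF-β Receptor 1* was 0.78 ± 0.39 (SD, n = 4) in 8-cell embryos, 2.0 ± 0.45 (SD, n = 3) in 16-cell embryos and 1.89 ± 0.66 (SD, n = 5) in 32-cell embryos. In an exact permutation test over the 3 stages its unadjusted p was 0.0235, and 0.150 after adjustment over the 10 pairs. *TGF-β Receptor 1* exceeded *Activin Receptor 1* by 2.84 ± 0.22 (SD, n = 4) in 8-cell embryos, 2.93 ± 2.61 (SD, n = 3) in 16-cell embryos and 0.76 ± 0.47 (SD, n = 5) in 32-cell embryos (exact permutation p = 0.0432, adjusted p = 0.150). Without 16-cell replicate 2, the embryo with 0 counts of *Activin Receptor 1*, the adjusted p of this pair was 0.00289 in the exact permutation test, with a range of 0.00289 to 0.301 when each embryo was left out in turn.

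The mean order of the BMP type I receptors differed between the first and the last stage, but not past the threshold once adjusted. *BMP Receptor 1* was above *Activin Receptor 1* by 1.64 ± 0.86 (SD, n = 4) in 8-cell embryos, where it was higher in 4 of 4 embryos, and below it by 0.83 ± 1.32 (SD, n = 5) in 32-cell embryos, where the differences ran from -2.35 to 0.21. The 8- and 32-cell embryos did not overlap in this difference, and the two-sided exact permutation p between them was 0.00794, the smallest that 126 splits can give. After adjustment over the 30 steps between stages that were tested it was 0.119, and none of the 30 steps passed the threshold after this exact permutation test was adjusted. Over the 3 stages together the pair had an exact permutation p of 0.0749 (adjusted p = 0.150), and the lowest adjusted p over the 10 pairs was also 0.150. On the counts alone, *Activin Receptor 1* made up 16 of 68 counts of both receptors in 8-cell embryos, 19 of 51 in 16-cell embryos and 52 of 89 in 32-cell embryos.

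**Figure D4:**
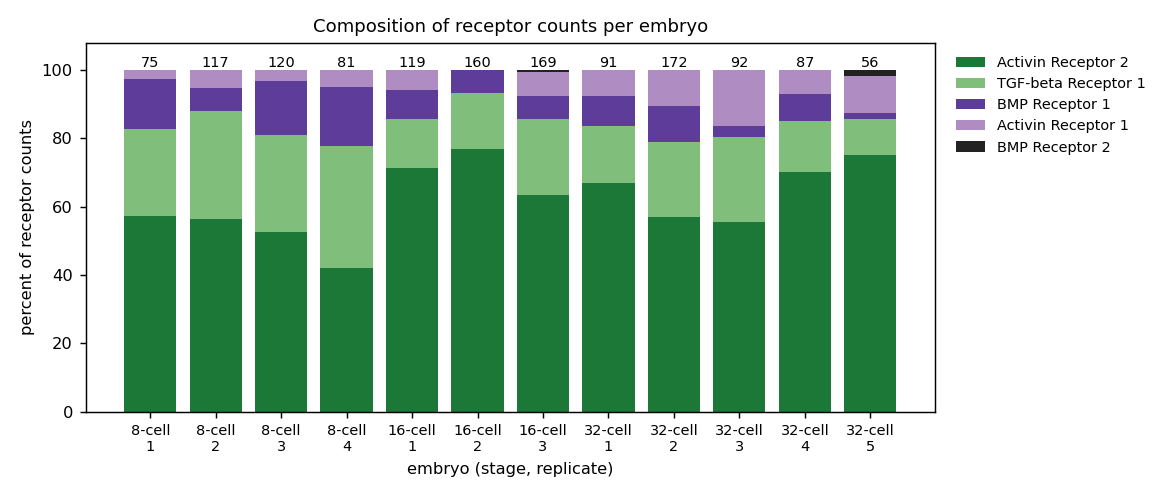
Share of each receptor in the summed counts of the 5 receptors (vertical axis, percent) in each of the 12 embryos, with the number of receptor counts of the embryo above its bar. *Activin Receptor 2* with *BMP Receptor 2*, the type II receptors, made up between 42.0% and 57.3% in the 8-cell embryos and between 63.9% and 76.9% in the 16-cell embryos.

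The make-up of the receptor counts of an embryo needs no scaling between embryos. The Activin/Nodal receptors held 82.3% ± 4.31 of the receptor counts in 8-cell embryos (SD, n = 4), 88.2% ± 4.25 in 16-cell embryos (SD, n = 3) and 82.8% ± 2.90 in 32-cell embryos (SD, n = 5). Single embryos ranged from 77.8% in 8-cell replicate 4 (63 of 81 counts, exact Clopper-Pearson 95% interval 67.2% to 86.3%) to 93.1% in 16-cell replicate 2 (149 of 160 counts, 88.0% to 96.5%). This share did not differ detectably between the stages (exact permutation test, p = 0.132). Within the type I receptors alone, the share of *TGF-β Receptor 1* was 63.3% ± 6.24 (SD, n = 4), 60.9% ± 10.2 (SD, n = 3) and 50.7% ± 3.58 (SD, n = 5), with an unadjusted exact permutation p of 0.0486 over the stages.

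The type II receptors, which were *Activin Receptor 2* but for 2 counts, held 52.1% ± 7.04 of the receptor counts in 8-cell embryos (SD, n = 4), 70.7% ± 6.51 in 16-cell embryos (SD, n = 3) and 65.3% ± 9.01 in 32-cell embryos (SD, n = 5). The 8- and 16-cell embryos did not overlap, and the 32-cell embryos ranged from 55.4% to 76.8%. The exact permutation p over the 3 stages was 0.0299, and 0.0598 after adjustment over both shares tested. Between the 8- and the 16-cell stage the exact permutation p of the type II share was 0.0286, the smallest that 35 splits can give. It was 0.143 after adjustment over the 6 steps of the type II and Activin/Nodal shares alone. Without 8-cell replicate 3 or 4, or 16-cell replicate 1 or 2, the unadjusted exact permutation p over the stages lay between 0.0592 and 0.0935.

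The spread between embryos of the same stage was described for each receptor, with no test of a difference between receptors. The coefficient of variation of *Activin Receptor 2* was 27.2%, 14.3% and 13.7% in 8-, 16- and 32-cell embryos, and that of *TGF-β Receptor 1* was 25.7%, 19.4% and 43.4%. The BMP type I receptors, with fewer counts, reached 70.5% for *BMP Receptor 1* in 32-cell embryos and 87.0% for *Activin Receptor 1* in 16-cell embryos. Counting error alone gives a variance equal to the mean, and the variance over the mean of the scaled counts was 3.33 for *TGF-β Receptor 1* and 3.32 for *BMP Receptor 1* in 32-cell embryos, 4.81 for *Activin Receptor 1* in 16-cell embryos and 3.85 for *Activin Receptor 2* in 8-cell embryos. In 16-cell embryos *BMP Receptor 1* had 0.302, with 10, 11 and 11 counts. The coefficient of variation between embryos that edgeR estimated beyond counting error was 0.155 for *Activin Receptor 2*, 0.229 for *TGF-β Receptor 1*, 0.298 for *BMP Receptor 1* and 0.376 for *Activin Receptor 1*, as a proportion of the level. The values of the trend that edgeR fitted over all genes at the same abundance were 0.165, 0.226, 0.309 and 0.325. The fit draws the estimate of each gene toward this trend, so closeness to it is partly built in. By the ratio of the estimated dispersion to the trend, the receptors lay at the 64.1, 74, 68.4 and 84.3 percentiles of the genes tested, in the same order.

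The other components of the pathway, taken from the list of 33 components in the study, were tested in the same fit. Of the Smads, which include carriers of the signal to the nucleus and the inhibitory *Smad6/7*, 1 of 4 passed over the 3 stages, against 17.2% of all genes tested. This was *Smad1/5/8* (log2 fold change 2.99 between 8 and 32 cells, standard error 0.54, adjusted p = 0.000270 in edgeR). *Smad2/3*, the substrate of the Activin/Nodal type I receptors, had an estimate of 0.91 in edgeR over the same interval (standard error 0.36, adjusted p = 0.0790). For *Smad4* it was 0.71 (standard error 0.42, adjusted p = 0.259) and for the inhibitory *Smad6/7* it was -0.08 (standard error 0.40, adjusted p = 0.941). The median of the 4 Smads was 0.81 between 8 and 32 cells, beside -0.06 for the 4 receptors and 0.09 for all genes tested.

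Of the Activin/Nodal ligands, 2 of 6 in the table had enough counts and 1 passed over the 3 stages, *activin/inhibin/myostatin-like 4*, where 17.2% of all genes tested passed. It rose by 0.73 (log2, standard error 0.21, adjusted p = 0.0319 in edgeR) between 8 and 16 cells, beside 0.75 for *Activin Receptor 2*. Of the 7 BMP-type ligands, 4 were tested over the 3 stages, and 0 passed in edgeR and 0 in DESeq2, with an unadjusted p under 0.05 for 2 of them in edgeR and 0 in DESeq2. The share of all genes at this unadjusted cutoff is not given here. Of the 10 extracellular and intracellular modulators, 5 were tested and 2 passed over the 3 stages, against the same 17.2% of all genes. These were *TSG*, which binds BMP ligands and fell between 8 and 32 cells (log2 fold change -0.95, standard error 0.16, adjusted p = 0.000150 in edgeR), and *Noggin A*, a BMP antagonist that rose from 0 counts in 8-cell embryos to 82 counts in 32-cell embryos (adjusted p = 3.60e-06 in edgeR).

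*BAMBI* (220461) is a pseudoreceptor that in vertebrates resembles a type I receptor without a kinase domain and blocks signaling. It had 4 counts in 8-cell embryos, 3 in 16-cell embryos and 16 in 32-cell embryos. Its mean in 32-cell embryos was 10.2 ± 10.7 CPM (SD, n = 5), with single embryos between 0 and 24.6 CPM, and its log2 fold change between 8 and 32 cells was 1.71 (standard error 0.96, adjusted p = 0.226 in edgeR). It was thus below the type I receptors in mean level and varied widely between embryos.

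Genes whose levels followed those of a receptor over the 12 embryos were taken by the Pearson correlation of log2(CPM + 1) among 7651 genes with a mean of at least 10 CPM. The gene models are named here by number, as the annotation gives them no other name. The closest to *Activin Receptor 2* were 168258 (r = 0.934, Spearman's rho = 0.937) and 129258 (r = 0.924, rho = 0.923). For *TGF-β Receptor 1* they were 221412 (r = 0.894, rho = 0.741) and 1610 (r = 0.866, rho = 0.685). For *BMP Receptor 1* they were 222498 (r = 0.916, rho = 0.755) and 193576 (r = 0.915, rho = 0.650), and for *Activin Receptor 1* they were 224509 (r = 0.894, rho = 0.790) and 106553 (r = 0.866, rho = 0.664). These values are the highest of a search over all genes in 12 libraries that share stages and depth, and describe these embryos only. For 3 of the 4 receptors the rank correlation was lower than Pearson's by more than 0.1.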

How the data were processed

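CEL-Seq libraries of 12 single embryos were grouped by stage from their labels. Per the methods, the authors sorted reads by barcode, aligned them with Bowtie2 to the Capca1 genome assembly (which release of Bowtie2 is not given in the sources used here), tallied UMIs over gene models by an htseq-count script and turned UMI numbers into transcript numbers. The deposited counts are whole numbers and not normalized. They were used as UMI counts, since none exceeded 1024, the number of distinct identifiers if these have 5 bases. This ceiling was reached by 28 values, so the highest counts, and the totals with them, may be too low. The deposited CPM values equal each count over the total of its embryo, times 1000000 (relative deviation at most 4.84e-10). The authors' table of their DESeq2 likelihood ratio test holds mean expression, fold changes and p-values and was not used. Columns of other samples numbered 0, rows naming no gene 0 and ERCC spike-in rows 0. Of the gene models, 31968 (98.6%) were found in the annotation table of this assembly, where only gene spans and no coding lengths are listed. Protein sequences of the receptors were not used here.

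Genes with at least 10 counts over the 12 embryos (11854) were tested in edgeR 4.0.16 (R 4.3.3) with TMM scaling, the quasi-likelihood F test, all embryos in the same fit and no covariates. The standard error was the log2 fold change over the square root of F. DESeq2 1.42.0 was an alternative. Permutation tests ran in Python 3.11.15 with numbers of assignments as given. Scripts were tested on simulated data. Pairs of replicates of a stage had a chi-square per degree of freedom between 1.81 and 3.02, so that none was a duplicate within sampling noise. Totals ranged from 236321 to 491733 (median 320464). The receptors and component lists, and the rule for named genes (the receptors, the Smads, *BAMBI*, components passing over the 3 stages, and the 2 genes most like each tested receptor), were chosen with earlier results of these data known. Alternatives were a replicate block, each embryo left out, thinning to the smallest total, no filter or filterByExpr, DESeq2 size factors, DESeq2's tests, pseudocounts of 0.1 and 10 in place of 1, and the deposited CPM. The UMI conversion and levels per kilobase of gene span were added after seeing the data.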

Additional observations from a re-analysis of the deposited data

Results flagged for a closer look

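The 8- and 32-cell embryos were searched for outlying embryos in receptor levels and shares. Among 13 such groups 1 held an embryo apart, where chance gives about 1 in 20. It was *BMP Receptor 2* at the 32-cell stage, where 32-cell replicate 5 had 4.48 CPM and the other 4 embryos had 0. With all others at 0 any single count stands apart, so the rate of 1 in 20 does not hold for this group. The value rests on 1 count in the embryo with the smallest total (236321), and the 3 counts that a count of 0 allows would be 12.7 CPM over the total there.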

How the results depend on the processing

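Of 762 results recomputed under alternatives, 732 kept their direction and side of the threshold, or stayed within 1.5 times for counts of genes, among them all 170 of the level differences between receptor pairs, although the size of those with *BMP Receptor 2* moved with the pseudocount, from 5.69 to 8.51 (0.1) and 2.84 (10) for *TGF-β Receptor 1* and from 7.24 to 10.07 and 4.26 for *Activin Receptor 2*. For pairs with the same receptor higher in 12 of 12 embryos, leaving 1 embryo out cannot move the sign-flip test past the threshold. Depth limits *Activin Receptor 1* and *BMP Receptor 2* most, with 87 and 2 counts in all. The causes of the changes below were not tested. Without a filter on low counts 425 genes changed from the 16- to the 32-cell stage in place of 262, and with each embryo left out between 740 (without 16-cell replicate 2) and 1158 changed from the 8- to the 16-cell stage in place of 1118. After thinning, *Activin Receptor 2* had an adjusted p of 0.0752 over the 3 stages and a log2 fold change of 0.66 to the 16-cell stage, both no longer past the threshold in edgeR. With each embryo left out, these ranged from 0.00437 to 0.0835 (lost without 8-cell replicate 3 or 4 or 16-cell replicate 2) and from 0.64 to 0.92. For *Activin Receptor 1* the adjusted p over the stages in edgeR was 0.0273 without a filter and 0.0413 to 0.232 with each embryo left out. Its log2 fold change between 8 and 32 cells, past the threshold in some settings, was 1.51 with DESeq2 size factors, 1.47 without a filter and 1.30 to 1.76 with each embryo left out. That to the 16-cell stage ranged from -0.26 (without 16-cell replicate 3) to 0.95. Small changes from the 16- to the 32-cell stage turned sign, from -0.33 to 0.077 (without 16-cell replicate 3) for *TGF-β Receptor 1* and from -0.60 to 0.060 (without 32-cell replicate 5) for *BMP Receptor 1* with each embryo left out.

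Same-numbered embryos did not deviate together (correlations of -0.094 to 0.072 in 10 pairs), which gave no sign of pairing by number. With few counts per gene and few embryos per stage, such correlations cannot exclude a shared brood. With the replicate block, 1847 genes changed over the stages in place of 2044, the change of *TGF-β Receptor 1* from the 16- to the 32-cell stage was 0.074 in place of -0.09, and no receptor crossed the threshold. The exact permutation p of the Activin/Nodal share of all 5 receptors (0.132) ranged from 0.0251 to 0.493 with each embryo left out. Within type I receptors alone, the exact permutation p of this share was 0.0486 with all embryos. With each embryo left out, that of the type II share was 0.0197 to 0.0935. The adjusted permutation p for the stage dependence of *TGF-β Receptor 1* and *Activin Receptor 1* was then 0.00289 to 0.301. Coding lengths were not given, so levels per coding kilobase were not run, and filterByExpr leaves out *Activin Receptor 1*.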
